A study of Danio rerio with 23 samples.

Results

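Among 57775 annotated transcripts measured in zebrafish (Danio rerio) ovary, 34 were at a rounded count of 0 in at least 3 mutant and at least 3 wild-type libraries and reached a CPM of 5 or more (estimated reads of the transcript scaled to a library total of 1000000) in at least 3 libraries of each genotype. These present-or-absent transcripts are described here by the libraries that carried them and by whether their patterns were shared. They were chosen by their own estimated counts and CPM in these libraries, so the levels, patterns and counts of carrying libraries below are a description without a test. Of all transcripts, 25269 were at 0 in 3 or more libraries of each genotype and 13538 were at 5 CPM or more in 3 or more libraries of each genotype. The 34 are 0.251% of those 13538.

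The libraries were made from polyadenylated RNA of whole ovaries of female fish. The GRKO fish lack the glucocorticoid receptor, the product of nr3c1, in the whole body, and the WT fish are wild type. There were 6 GRKO libraries at 6 months (numbers 2, 3, 5, 10, 11 and 12), 6 GRKO libraries at 3 months (4, 7, 9, 10, 12 and 13), 6 WT libraries at 6 months (1, 2, 6, 7, 8 and 9) and 5 WT libraries at 3 months (2, 6, 10, 12 and 13). The series asks what loss of the receptor does to ageing of the ovary. Numbers are those in the sample titles. Whether the libraries stem from different fish is not stated in the labels, and p-values therefore cover only library-to-library spread, which may be technical. GRKO library 4 at 3 months has a mutant title but a wild-type genotype field and was kept by its title.

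The glucocorticoid receptor is a nuclear receptor that binds cortisol and then switches genes on or off. In fish ovary, cortisol reaches oocytes and the follicle cells around them, and an ovary holds follicles of several stages at once. A gene can give several transcripts through alternative starts, splicing or ends. The deposited values are estimated counts per transcript: reads that match several transcripts are divided among them, so a transcript may be listed at 0 while another that shares its sequence holds the reads. The files give Ensembl transcript identifiers only, and 0 of them matched the name tables used here, so no gene, position, role or sequence is given for any of the 34, and marker genes of the ovary and of other tissues were not analysed here. In whole tissue, fewer cells of a type and less RNA per cell cannot be told apart.

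Library totals were close, from 31242818 to 37292796 counts in GRKO at 6 months, 30452427 to 37985230 in GRKO at 3 months, 29489146 to 35535800 in WT at 6 months and 33606803 to 39785753 in WT at 3 months. WT libraries 2 and 6 at 3 months stood apart over the 23393 transcripts with at least 1 CPM in at least 5 libraries. Their median correlations on log2(CPM + 1) were 0.912 and 0.924 with the GRKO libraries at 3 months, against 0.830 and 0.843 with WT libraries 10, 12 and 13 of their own group. The rule depends on them: it gave 12 transcripts without both, 19 without library 2 and 21 without library 6.

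A library is said to carry a transcript at 5 CPM or more and to lack it at a rounded count of 0. Of the 782 values of the 34 transcripts in 23 libraries, 336 (43.0%) were carried, 286 (36.6%) were absent and 160 (20.5%) lay between. A transcript was carried by 7 to 17 libraries (median 9.5) and absent from 6 to 14 (median 8). ENSDART00000185600.1 was the one transcript with no library between, 10 had 1 or 2 libraries between, and 4 had 10 (ENSDART00000111877.4, ENSDART00000192590.1, ENSDART00000192077.1 and ENSDART00000171062.2). The transcripts therefore ran from a clean split to a broad spread that only touches both limits.

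Most were modest in level where carried. The median CPM over the carrying libraries had a median of 14.9 over the 34, and 18 transcripts averaged under 20 CPM there, against 3 that averaged over 100 CPM. At the 5 CPM limit, the transcripts just inside had 5.08 (ENSDART00000192077.1), 5.47 (ENSDART00000184180.1) and 5.67 CPM (ENSDART00000111877.4) at the value that ranked 3 from the top in the genotype where that was lower. Those just outside had 4.89 (ENSDART00000162519.2), 4.89 (ENSDART00000162952.2) and 4.65 CPM (ENSDART00000165668.2). The values pass through the limit without a gap.

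**Figure D1:**
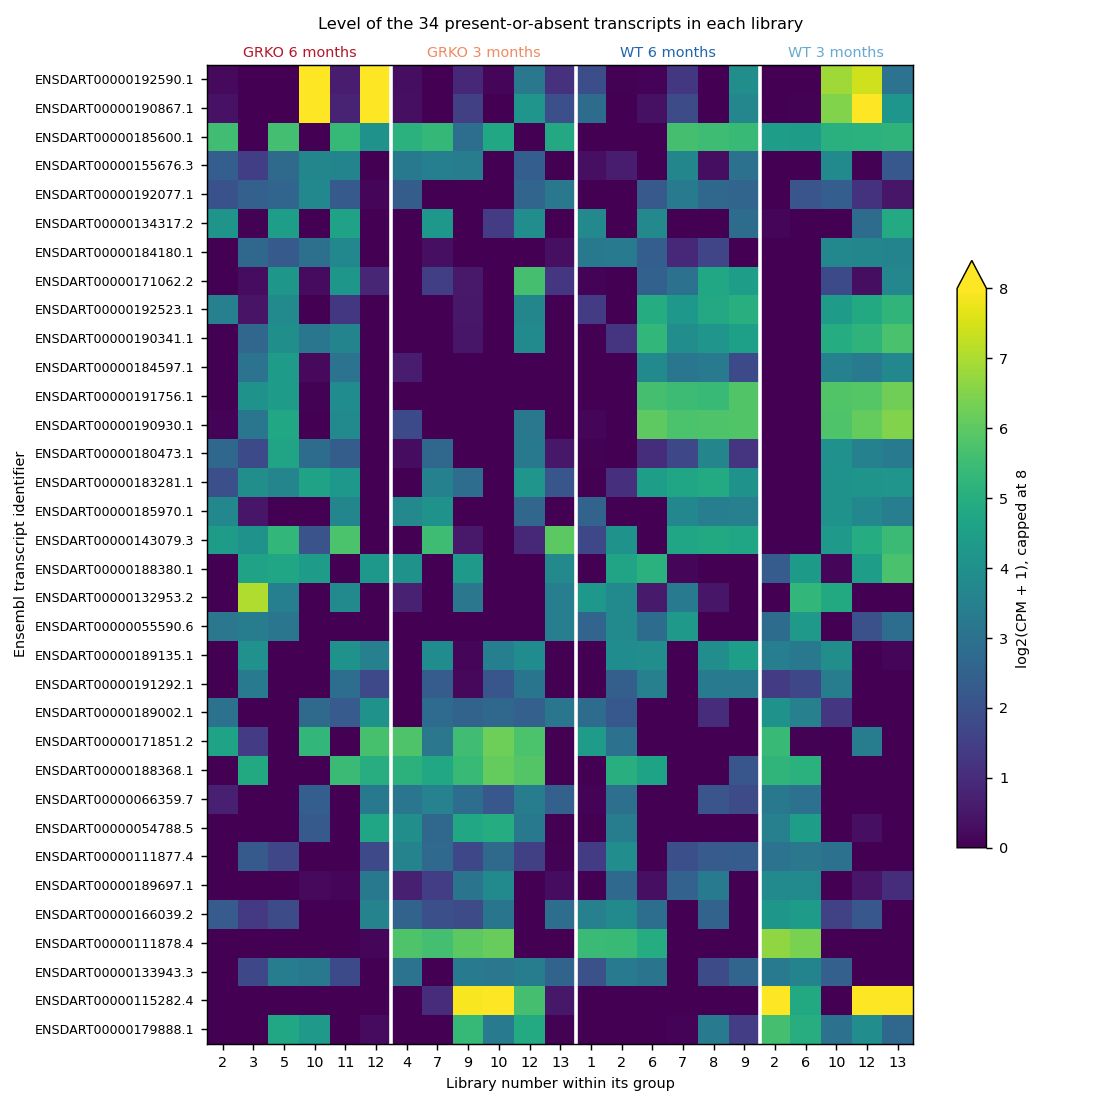
Level of each of the 34 transcripts (rows, ordered by likeness of pattern) in each of the 23 libraries (columns, by group and library number), as log2(CPM + 1) with colours capped at 8. Dark cells are at or near 0; the columns of WT libraries 2 and 6 at 3 months differ from those of WT libraries 10, 12 and 13 beside them.

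The rule asks for carrying libraries in both genotypes, so no transcript could be confined to 1 group. Of the 34, 27 were carried by at least 1 library in all 4 groups. GRKO at 6 months and GRKO at 3 months each carried none of 3 transcripts, and WT at 6 months and WT at 3 months each carried none of 1. Few transcripts were carried by every library of a group, which the rule limits by asking for lacking libraries in each genotype. ENSDART00000185600.1 and ENSDART00000179888.1 were carried by all 5 WT libraries at 3 months, and no other group had such a transcript. By number of libraries, 17 transcripts were carried by more GRKO libraries at 6 months than at 3 months, 13 by fewer and 4 by as many.

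Each library carried 9 to 20 of the 34. The number carried was 9 to 18 (median 13) in GRKO at 6 months, 9 to 20 (median 13.5) in GRKO at 3 months, 9 to 17 (median 15) in WT at 6 months and 15 to 19 (median 18) in WT at 3 months. GRKO library 12 at 3 months carried 20, and 9 each were carried by library 2 of GRKO at 6 months, library 13 of GRKO at 3 months and library 1 of WT at 6 months. The groups overlapped in number carried. The 34 together took 0.0164% to 0.580% of a library's counts in GRKO at 6 months, 0.0164% to 0.0943% in GRKO at 3 months, 0.0146% to 0.0375% in WT at 6 months and 0.0377% to 0.119% in WT at 3 months, and the top of the range, in GRKO libraries 12 and 10 at 6 months, came with the pair of high transcripts described next.

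**Figure D2:**
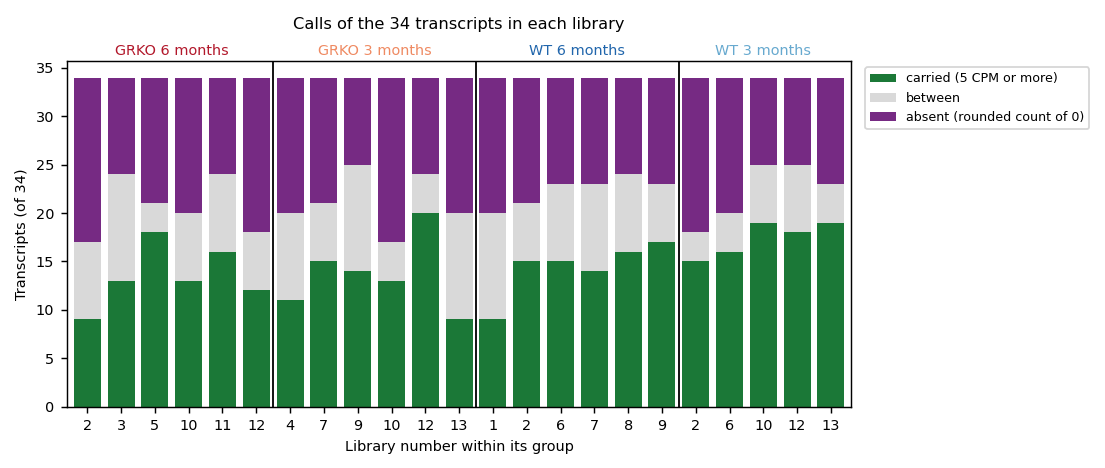
Number of the 34 transcripts that each library carried (5 CPM or more, green), had between the limits (grey) or lacked (rounded count of 0, purple), by group. Carried transcripts number 9 to 20 per library.

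ENSDART00000190867.1 and ENSDART00000192590.1 had the highest levels and moved together, with carried calls that differed in 1 of 23 libraries and a correlation of 0.993 on log2(CPM + 1). ENSDART00000190867.1 had 1573 and 3672 CPM in GRKO libraries 10 and 12 at 6 months, against at most 0.729 CPM in the other 4 of that group. It reached 16.8 CPM in GRKO library 12 at 3 months and at most 2.84 CPM in the other 5. In WT at 6 months it had 6.15 CPM in library 1 and 12.1 CPM in library 9, and at most 2.58 CPM in the other 4. In WT at 3 months it had 87.8, 398 and 17.5 CPM in libraries 10, 12 and 13, and at most 0.0337 CPM in libraries 2 and 6. The 4 highest values thus fell in 2 GRKO libraries of 6 months and 2 WT libraries of 3 months.

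ENSDART00000192590.1 followed, with 1236 and 1925 CPM in GRKO libraries 10 and 12 at 6 months, 8.21 CPM in GRKO library 12 at 3 months, 14.4 CPM in library 9 of WT at 6 months and 115, 172 and 7.31 CPM in WT libraries 10, 12 and 13 at 3 months. Every other library was at 2.80 CPM or less. A transcript outside the set, ENSDART00000078328.6, was most like ENSDART00000190867.1 (r = 0.993) and had 2189 and 2830 CPM in the same GRKO libraries 10 and 12 at 6 months. The 2 transcripts were those with the widest range of the 34.

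ENSDART00000115282.4 was carried at 3 months only, in both genotypes. GRKO libraries 9, 10 and 12 at 3 months had 241, 606 and 48.7 CPM, libraries 7 and 13 had 1.04 and 0.435 CPM, and library 4 was at 0. WT libraries 2, 6, 12 and 13 at 3 months had 404, 28.1, 252 and 297 CPM, and library 10 was at 0. All 6 GRKO and all 6 WT libraries at 6 months were at 0. Both ages overlapped only through the 3-month libraries at 0, which were 1 in each genotype.

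**Figure D3:**
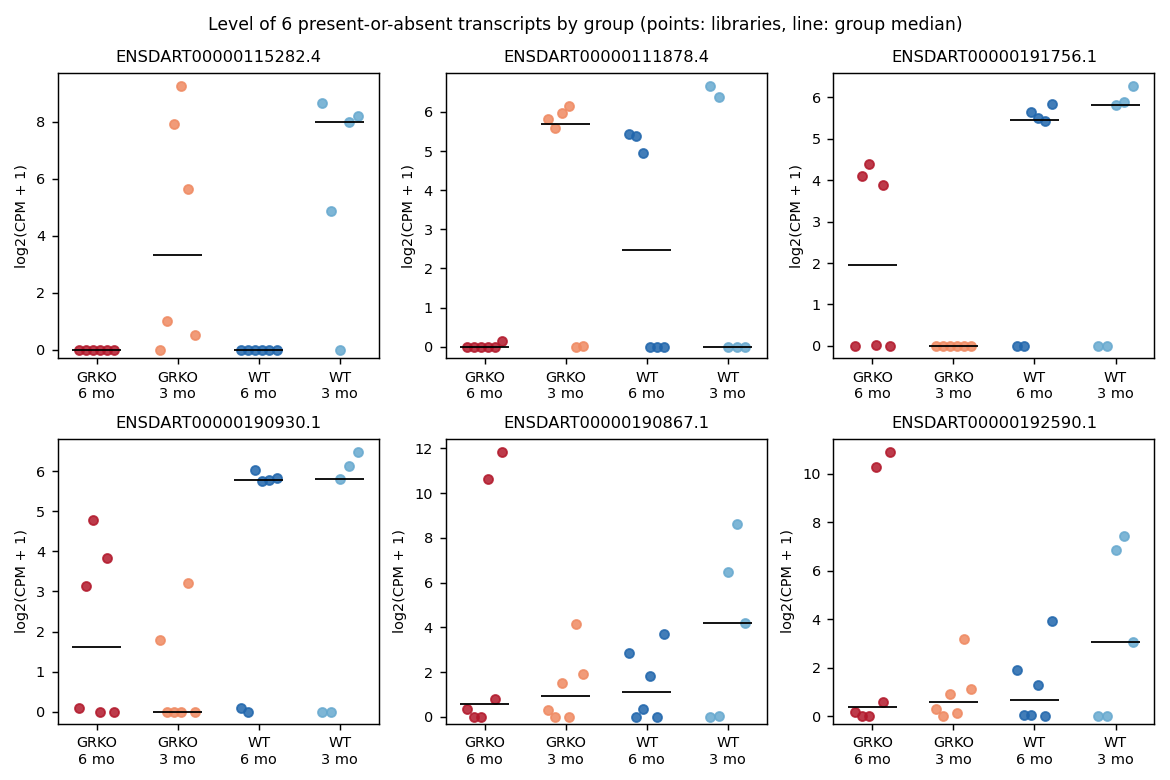
Level of 6 present-or-absent transcripts as log2(CPM + 1), with a point for each library and a line at the group median. Points of the same group can lie both at the bottom of a panel and well above it, with some between. ENSDART00000115282.4 is at 0 in all 12 libraries of 6 months.

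Patterns were rarely shared. No pair among the 561 pairs had the same carried calls in all 23 libraries, so the 34 transcripts made 34 distinct patterns, and the median pair differed in 11 libraries. The correlation of a pair on log2(CPM + 1) had a median of 0.00 and ran from -0.83 to 0.99, with 6 pairs at 0.9 or above and 12 at -0.7 or below. Correlations here are over the same 23 libraries and total-count scaling, and transcripts can share reads, so they are given as a description. In 5 pairs the calls differed in at most 1 library, which joined 8 transcripts into 3 sets: the high pair above, a set of 4 and a further pair.

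The set of 4 was ENSDART00000191756.1, ENSDART00000190930.1, ENSDART00000190341.1 and ENSDART00000184597.1, with a widest difference of 3 libraries and a lowest correlation of 0.84. ENSDART00000191756.1 had 16.1, 20.1 and 13.7 CPM in GRKO libraries 3, 5 and 11 at 6 months and at most 0.0239 CPM in the other 3. All 6 GRKO libraries at 3 months lacked it. WT libraries 6, 7, 8 and 9 at 6 months had 49.3, 44.0, 41.8 and 55.7 CPM, against a rounded count of 0 in libraries 1 and 2, and WT libraries 10, 12 and 13 at 3 months had 55.5, 57.9 and 75.9 CPM, against 0 in libraries 2 and 6. Every carrying WT library was above every GRKO library.

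ENSDART00000190930.1 had the same carrying libraries and 1 more, GRKO library 12 at 3 months with 8.18 CPM. Its levels were 7.78, 26.6 and 13.2 CPM in GRKO libraries 3, 5 and 11 at 6 months, 64.2, 52.8, 54.5 and 56.0 CPM in WT libraries 6, 7, 8 and 9 at 6 months, and 54.7, 68.7 and 89.0 CPM in WT libraries 10, 12 and 13 at 3 months. ENSDART00000190341.1 was carried by those 11 libraries and by GRKO library 10 at 6 months with 7.80 CPM, and peaked at 50.8 CPM in WT library 13 at 3 months. ENSDART00000184597.1 was lower, at a mean of 10.6 CPM over 9 carrying libraries, and lay at 2.49 CPM in WT library 9 at 6 months. All 4 were at 0 in WT libraries 2 and 6 at 3 months and in GRKO library 12 at 6 months.

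Many transcripts outside the set resembled these 4. Over the 23393 transcripts with at least 1 CPM in at least 5 libraries, the number correlated at 0.8 or above was 1260 for ENSDART00000191756.1, 1135 for ENSDART00000190930.1, 1015 for ENSDART00000190341.1 and 558 for ENSDART00000184597.1. The most like ENSDART00000191756.1 was ENSDART00000193903.1 (r = 0.99), at 3.39 to 14.1 CPM in the 10 libraries that carried ENSDART00000191756.1 and at most 0.0243 CPM in the 12 that lacked it. The most opposite was ENSDART00000151048.2 (r = -0.96), at 0 to 4.42 CPM in the carrying libraries and 7.00 to 31.6 CPM in those that lacked it. ENSDART00000186419.1 was the most opposite to ENSDART00000190930.1 (r = -0.94) and to ENSDART00000190341.1 (r = -0.92). Over the 34, by contrast, 5 had no transcript at 0.8 or above, 16 had 1 to 10, 4 had 11 to 50 and 9 had over 90. The same counts over all transcripts searched were not computed, so nothing is read from these.

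The further pair was ENSDART00000054788.5 and ENSDART00000066359.7 (r = 0.80). ENSDART00000054788.5 had 25.6 CPM in GRKO library 12 at 6 months and at most 3.76 CPM in the other 5 of that group. GRKO libraries 4, 7, 9, 10 and 12 at 3 months had 14.4, 5.37, 27.1, 30.3 and 8.32 CPM, and library 13 was at a rounded count of 0. WT library 2 at 6 months had 9.25 CPM with the other 5 at 0, and WT libraries 2 and 6 at 3 months had 10.2 and 21.0 CPM, against at most 0.245 CPM in libraries 10, 12 and 13. It was thus carried by 5 of 6 GRKO libraries at 3 months and by 4 other libraries of the series.

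ENSDART00000066359.7 stayed low, at 6.49 to 10.8 CPM in its 8 carrying libraries, and 7 libraries were at a rounded count of 0. A transcript listed 2 places away in the deposited order, ENSDART00000152689.3, ran opposite to it (r = -0.83), with 6.03 to 14.1 CPM where ENSDART00000066359.7 was carried and 17.7 to 23.3 CPM where it was absent. The coefficient of variation over the 23 libraries was 102% for ENSDART00000066359.7, 34.2% for the more abundant ENSDART00000152689.3 and 14.1% for their sum. ENSDART00000152689.3 was picked because it ran opposite, so a steadier sum follows in part from that choice.

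Exact complements were not found within the 34. No pair had opposite calls in all but 1 library, and the most opposite calls of any pair were 20 of 23, in 3 pairs. The lowest correlation within the set was between ENSDART00000190930.1 and ENSDART00000189002.1 (r = -0.83). Opposed transcripts outside the set were looked for after the members' values were seen, and 11 of the 34 had one at a correlation of -0.9 or below. Each was picked from all transcripts searched. The share of all searched transcripts with such a partner was not computed, so nothing is read from this count.

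The clearest was that of ENSDART00000111878.4. This transcript had 0.105 CPM in GRKO library 12 at 6 months and a rounded count of 0 in the other 5 of that group. GRKO libraries 4, 7, 9 and 10 at 3 months had 55.0, 47.4, 62.1 and 70.0 CPM, with a rounded count of 0 in libraries 12 and 13. WT libraries 1, 2 and 6 at 6 months had 42.5, 41.1 and 30.0 CPM and WT libraries 2 and 6 at 3 months had 99.9 and 82.8 CPM, with a rounded count of 0 in the other WT libraries. No library fell between 0.105 and 30.0 CPM.

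ENSDART00000047660.5, the next transcript in the deposited list, ran opposite to it (r = -0.99). It had 0.00736 to 0.0251 CPM in the 9 libraries that carried ENSDART00000111878.4 and 14.7 to 33.3 CPM in the 13 that lacked it. Each of these libraries therefore carried 1 of the 2 and had at most 0.0251 CPM of the other. ENSDART00000047660.5 was at a rounded count of 0 in only 3 of the 9. The sum of the 2 transcripts was not steady, at 14.7 to 99.9 CPM. Its coefficient of variation was 59.2%, against 140% for ENSDART00000111878.4 and 87.9% for ENSDART00000047660.5. The order of the list is not explained in the sources used here, and whether the 2 share reads was not tested.

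**Figure D4:**
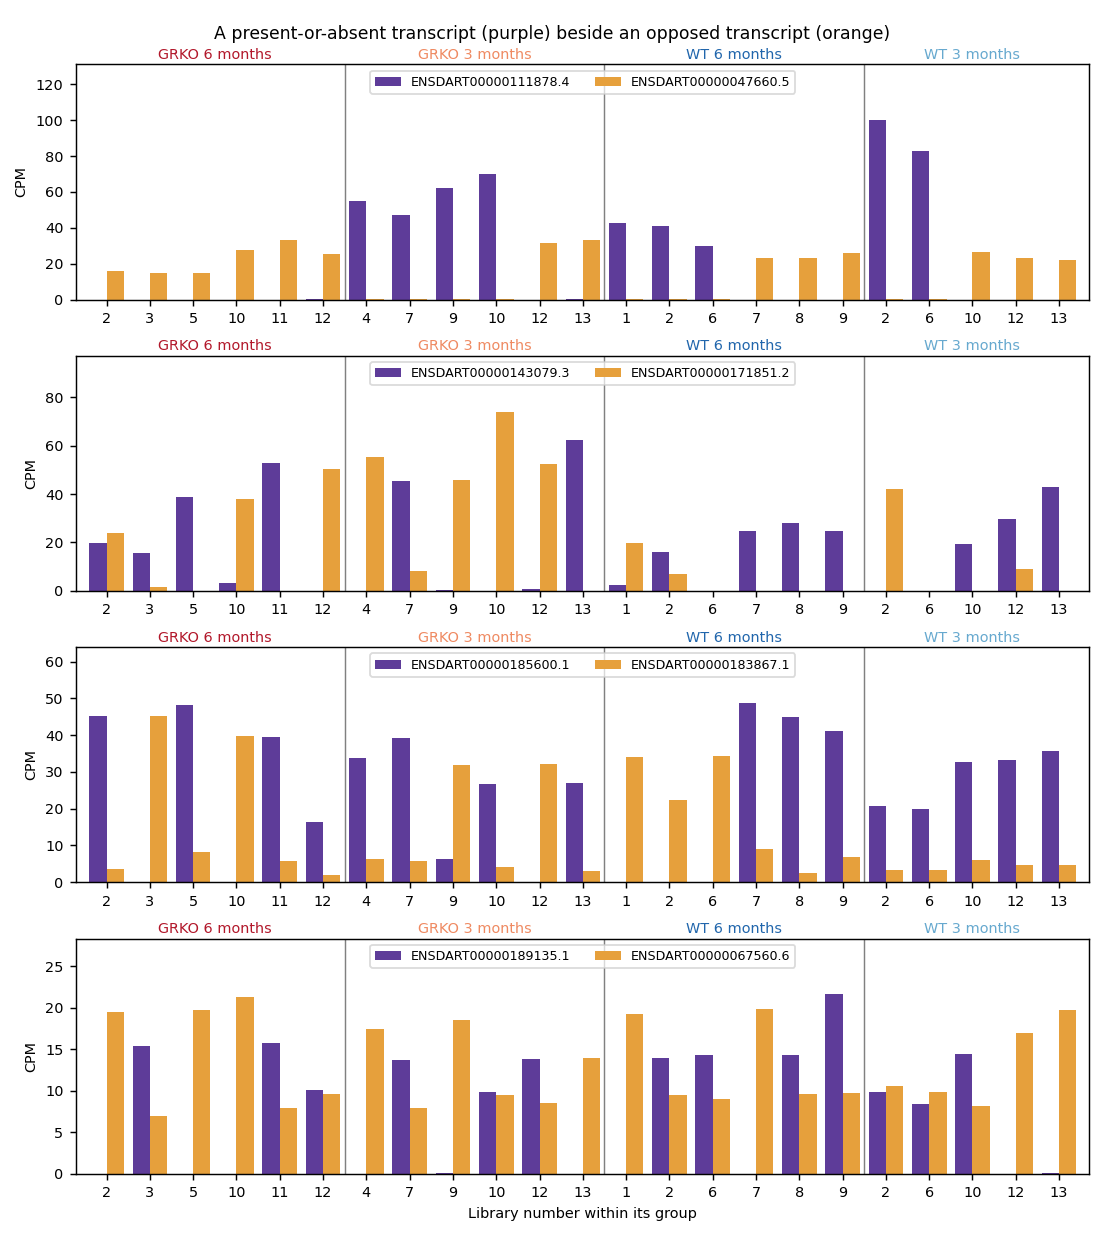
CPM in each library of 4 present-or-absent transcripts (purple) beside a transcript that ran opposite to each (orange); ENSDART00000171851.2 is itself one of the 34. In the top panel each library has a visible bar for only 1 of the 2 transcripts, while in the lower panels the opposition is partial.

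Other opposed transcripts changed level without reaching 0. ENSDART00000189135.1 was carried at 8.38 to 21.6 CPM by 13 libraries and absent from 8. ENSDART00000067560.6 had 6.91 to 10.5 CPM in those 13 libraries and 13.9 to 21.4 CPM in those 8 (r = -0.96). The sum of the 2 had a coefficient of variation of 16.1%, against 39.0% for ENSDART00000067560.6 alone and 95.4% for ENSDART00000189135.1 alone. ENSDART00000067560.6 was picked as the most opposite transcript, so a steadier sum follows in part from that choice. ENSDART00000191292.1, another of the 34, was most like ENSDART00000189135.1 (r = 0.96) and was carried by 7 libraries, each of which also carried ENSDART00000189135.1. ENSDART00000185970.1 was opposed by ENSDART00000172360.2 (r = -0.91), at 17.4 to 29.4 CPM in 11 carrying libraries and 38.8 to 82.3 CPM in the 10 that lacked it.

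ENSDART00000185600.1 was the most widely carried, by 17 libraries. Its levels were 45.3, 48.2, 39.6 and 16.4 CPM in GRKO libraries 2, 5, 11 and 12 at 6 months, with 0 in libraries 3 and 10, and 33.9, 39.1, 6.38, 26.6 and 27.1 CPM in GRKO libraries 4, 7, 9, 10 and 13 at 3 months, with 0 in library 12. WT libraries 7, 8 and 9 at 6 months had 48.7, 44.9 and 41.2 CPM, with 0 in libraries 1, 2 and 6, and WT libraries 2, 6, 10, 12 and 13 at 3 months had 20.7, 19.9, 32.8, 33.2 and 35.6 CPM. The 6 libraries at 0 were spread over 3 of the 4 groups. Among WT carriers, every library of 6 months was above every library of 3 months.

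The transcripts most like and most opposite to ENSDART00000185600.1 differed in steps between its carriers and the other libraries. They were picked for this from all transcripts searched, so clear steps follow in part from that choice. ENSDART00000125781.4 had 90.3 to 122 CPM in the 17 carrying libraries and 35.7 to 51.2 CPM in the 6 that lacked it (r = 0.95), with no overlap. ENSDART00000148189.3 went the other way, at 1.42 to 3.62 CPM in carriers and 9.60 to 16.5 CPM in the others (r = -0.95). The next transcript in the list, ENSDART00000183867.1, had 1.99 to 31.9 CPM in carriers and 22.2 to 45.4 CPM in the others (r = -0.87); its highest value among carriers was in GRKO library 9 at 3 months, where ENSDART00000185600.1 was lowest among carriers.

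ENSDART00000143079.3 and ENSDART00000171851.2 are both among the 34 and stand next to each other in the list. ENSDART00000143079.3 had 19.8, 15.8, 38.7, 3.09 and 52.7 CPM in GRKO libraries 2, 3, 5, 10 and 11 at 6 months, where ENSDART00000171851.2 had 24.1, 1.66, 0, 37.9 and 0 CPM after rounding of counts, and GRKO library 12 had 0 and 50.5 CPM. In GRKO at 3 months, ENSDART00000143079.3 had 45.2 and 62.4 CPM in libraries 7 and 13 and at most 0.839 CPM in the other 4, where ENSDART00000171851.2 had 55.1, 45.8, 74.0 and 52.5 CPM. Their correlation was -0.62, and the coefficient of variation of their sum was 50.5%, against 105% and 127% for each alone. The 2 were paired because they ran opposite within 3 places in the list, so a steadier sum follows in part from that choice. The opposition was incomplete. Both were carried by GRKO library 2 at 6 months and by GRKO library 7 at 3 months (45.2 and 8.02 CPM). WT library 2 at 6 months (16.0 and 6.85 CPM) and WT library 12 at 3 months (29.9 and 9.22 CPM) also carried both. The WT libraries numbered 6 at either age held neither beyond 0.0314 CPM. Whether the 2 share reads was not tested.

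ENSDART00000188368.1 was another abundant transcript with 1 library between the limits. It had 27.8, 43.0 and 30.8 CPM in GRKO libraries 3, 11 and 12 at 6 months and 26.8 to 68.6 CPM in GRKO libraries 4, 7, 9, 10 and 12 at 3 months. WT libraries 2 and 6 had 31.6 and 23.8 CPM at 6 months and 37.0 and 33.8 CPM at 3 months. Of the 11 other libraries 10 were at 0 and WT library 9 at 6 months had 3.45 CPM. ENSDART00000040334.6, picked as the transcript most like ENSDART00000188368.1 (r = 0.91), had 29.1 to 81.8 CPM in the 12 carriers. It had 8.91 to 21.0 CPM in the 10 libraries that lacked ENSDART00000188368.1.

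Closeness in the deposited list was looked at for the whole set. Within 3 places, 8 of the 34 (23.5%) had a transcript correlated at -0.75 or below, against 1040 of 22413 transcripts searched (4.64%). The median of the lowest such correlation was -0.52 for the 34 and -0.24 for all searched. The rule chose the 34 for a wide range over libraries, and the other transcripts searched were not so chosen. These contrasts are therefore not independent of the rule, and sharing of reads between neighbours was not tested. None of the 34 had whole estimated counts in every library, within 0.001 of a whole number, with 9 to 20 libraries not whole for each. Of the 13538 transcripts at 5 CPM or more in 3 libraries of each genotype, 16.3% had whole counts in every library. Identifiers at their first version made up 20 of the 34 (58.8%), against 12.2% of those 13538. These shares are descriptions of how the 34 are listed and counted.

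Libraries resembled each other in this set partly across genotype, which the rule favours by asking for carrying and lacking libraries in both. The carried calls of the 34 were the same for 7 to 32 transcripts in the 253 pairs of libraries, with a median of 17. Within a group the median was 18 (8 to 27) in GRKO at 6 months, 20 (9 to 27) in GRKO at 3 months, 18 (8 to 26) in WT at 6 months and 9 (8 to 31) in WT at 3 months. Between genotypes of the same age it was 18.5 (10 to 28) at 6 months and 15 (8 to 32) at 3 months. Between ages it was 16 (9 to 25) in GRKO and 17 (7 to 27) in WT. The median within GRKO at 3 months was the highest of these, and the medians within both groups of 6 months lay near those between groups. The median within WT at 3 months was the lowest, which is not independent of the rule, as given next.

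That group split in 2. WT libraries 2 and 6 had the same call for 31 transcripts, and libraries 10, 12 and 13 had the same call for 24 to 31, but the 2 sides had the same call for only 8 or 9. Of the 34, 11 were absent in libraries 2 and 6 and carried in libraries 10, 12 and 13, among them the set of 4 above, and 8 were carried in libraries 2 and 6 but not in the other 3, among them ENSDART00000111878.4 and ENSDART00000188368.1. The same 2 libraries stood apart over the 23393 transcripts with at least 1 CPM in at least 5 libraries. The part of that difference in this split was not tested. As stated above, fewer transcripts met the rule without libraries 2 and 6. The rule thus favours transcripts that differ between the 2 sides, and the split among the 34 is not independent of it.

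The closest match of all was between genotypes. At 3 months, library 10 of GRKO and library 2 of WT had the same call for 32 of the 34. Over the 23393 transcripts with at least 1 CPM in at least 5 libraries their correlation was 0.940. Among the 22 other libraries set against WT library 2, this was second only to WT library 6 (0.969). GRKO library 10 had a median correlation of 0.963 with the other GRKO libraries at 3 months.

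**Figure D5:**
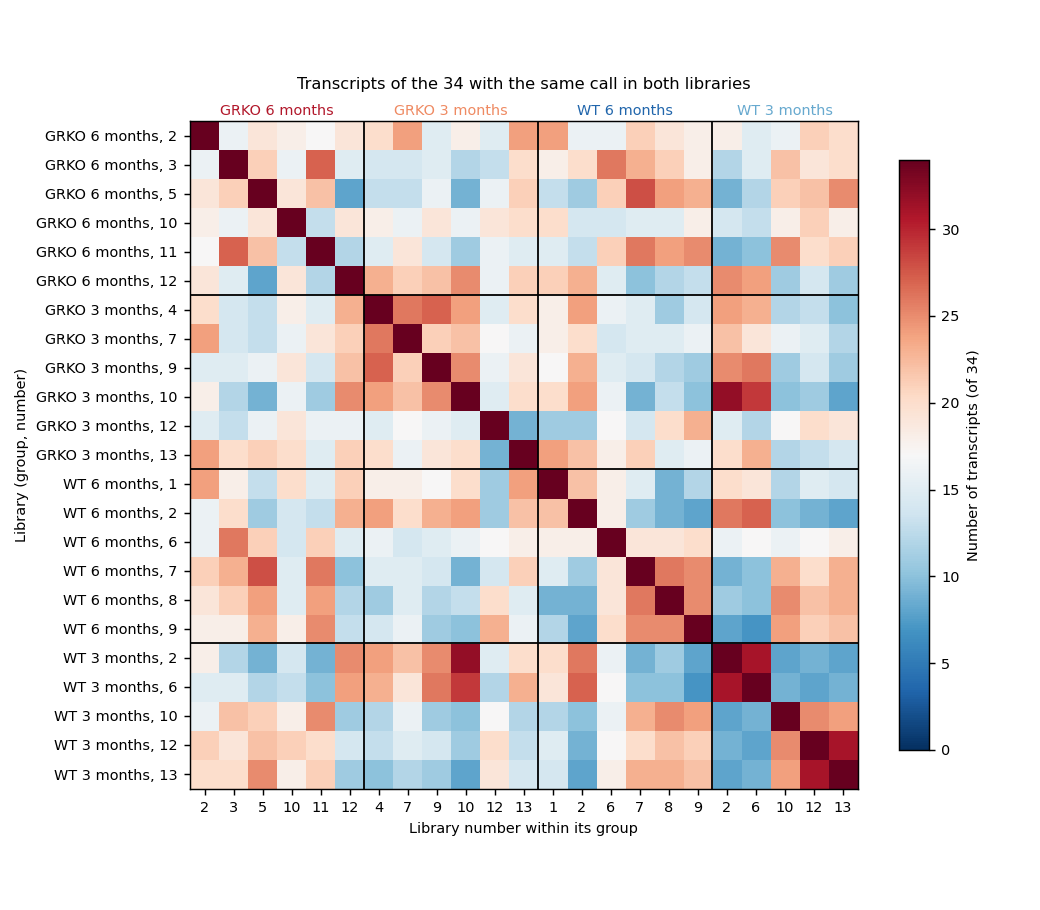
Number of the 34 transcripts with the same carried or not carried call (5 CPM) in each pair of the 23 libraries, by group. WT libraries 2 and 6 at 3 months match each other in 31 and WT libraries 10, 12 and 13 in 8 or 9.

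Age was tested within each genotype. The rule pooled the ages, but it asked for carrying and lacking libraries within each genotype. It thus selected on the spread that an age test uses, so calls and shares among the 34 are not independent of it. All 34 transcripts passed the low-count filter, among 30849 transcripts tested with edgeR's quasi-likelihood test and Benjamini-Hochberg adjustment over all of them at 0.05. For 6 against 3 months in GRKO, 0 of the 34 were called, with 0.0162% of all transcripts called, and 7 of the 34 had an unadjusted p under 0.05, against 10.3% of all transcripts. DESeq2 called 5 of the 34, with 2.31% of all transcripts called, and limma called 1, also with 2.31% of all called. For 6 against 3 months in WT, 0 of the 34 were called, with 0.00972% of all transcripts called, and 1 of the 34 had an unadjusted p under 0.05, against 11.3% of all. DESeq2 called 1 of the 34 (ENSDART00000115282.4, described below), with 1.53% of all called, and limma called 0, with 0.0681% of all called.

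The fitted age changes were larger in the set than over all transcripts without passing the test. The median absolute log2 fold change was 1.09 for the 34 and 0.26 for all in GRKO, and 0.69 for the 34 and 0.29 for all in WT. In GRKO 21 of the 34 were higher and 13 lower at 6 months by sign alone, and in WT 5 were higher and 29 lower. The rule selects a wide range over libraries, so the size of these folds is not independent of it, and nothing is read from the signs.

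ENSDART00000115282.4 had the largest fitted age changes, and its 6-month libraries were all at 0, so each fold is a lower bound. The floor was 3 counts over the 6 libraries, set against the summed counts of the 3-month libraries. On this basis the transcript was at least 9961-fold lower at 6 months in GRKO and at least 13212-fold lower in WT. These bounds cover counting error only and not the spread between libraries. The edgeR adjusted p was 0.166 in GRKO and 0.218 in WT, while DESeq2 gave 1.546e-28 and 6.715e-27. With a group all at 0 the fold has no finite estimate. Its fitted log2 value reached -29.4 in GRKO and -29.8 in WT among the alternatives. Nothing is therefore read from the DESeq2 p-values. Over all alternatives tried the adjusted p ran from 1.546e-28 to 1 in GRKO and from 6.715e-27 to 0.832 in WT. It was 0 in all 6 libraries at 6 months in each genotype and above 0 in 5 of 6 GRKO and 4 of 5 WT libraries at 3 months.

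ENSDART00000111878.4 had the lowest adjusted p for age in GRKO, with a log2 fold change of -11.05 (SE 3.00) and an edgeR adjusted p of 0.158. It was carried by 0 of 6 libraries at 6 months and 4 of 6 at 3 months. The size of this fold rests on 6-month values near 0, and it ran from -17.0 to -8.58 over the alternatives. In the other direction, ENSDART00000191756.1 was at least 578-fold higher at 6 months than at 3 months in GRKO by summed counts. All 6 younger libraries were at 0, and 3 of 6 older libraries were above 1 CPM. The bound covers counting error only, and the edgeR adjusted p was 0.228.

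The age effect was also compared between genotypes, with the same limit from the rule. The interaction of genotype and age was called for 0 of the 34, with 0.00648% of all transcripts called, and 6 of the 34 had an unadjusted p under 0.05, against 4.83% of all. DESeq2 called 3 of the 34, with 1.14% of all called, and limma called 0, with 0.00324% of all called. The lowest edgeR adjusted p was 0.292, for ENSDART00000192590.1, with a log2 difference of 12.73. ENSDART00000190867.1 had a log2 difference of 13.06 with an adjusted p of 0.312. Both rest on GRKO libraries 10 and 12 at 6 months: without those 2 libraries the log2 differences were 0.96 and 1.18 with edgeR adjusted p-values of 1.

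Genotype comparisons are limited by the rule, which asks for carrying and lacking libraries in both genotypes, and nothing is read from their counts. At 3 months 2 of the 34 were called for GRKO against WT, with 8.39% of all transcripts called. At 6 months 1 of the 34 was called, with 6.05% of all transcripts called. The 2 ages share no libraries, but both comparisons came from 1 model of all 23 libraries with 1 estimate of spread. They are therefore not independent, and libraries of 1 age can change the calls at the other. Without WT libraries 2 and 6 at 3 months the calls were 7 of the 34 at 3 months, with 27.2% of all transcripts called, and 3 at 6 months, with 10.6% of all called.

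At 3 months ENSDART00000191756.1 was at 0 in all 6 GRKO libraries and carried by 3 of 5 WT libraries, which makes it at least 2531-fold lower in GRKO with 3 counts over the 6 libraries as the floor, with an edgeR adjusted p of 0.0283. ENSDART00000184180.1, named after its values were seen, had at most 0.269 CPM in the 6 GRKO libraries at 3 months, against 12.3, 11.8 and 11.2 CPM in WT libraries 10, 12 and 13 and 0 in WT libraries 2 and 6. Its log2 fold change was -6.41 (SE 1.88) with an edgeR adjusted p of 0.0377. In both, the WT libraries at 0 overlapped the GRKO libraries.

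At 6 months ENSDART00000111878.4 was lower in GRKO, with 0 of 6 carrying libraries against 3 of 6 in WT. The log2 fold change was -9.91 (SE 2.95) and the edgeR adjusted p 0.0490. In GRKO at 6 months 5 libraries were at a rounded count of 0 and library 12 had 0.105 CPM. The size of the fold therefore rests on values near 0, and it ran from -12.3 to -4.23 over the alternatives. None of these 3 calls held under every alternative. The call of ENSDART00000111878.4 was lost without any one of 13 libraries: each GRKO library at 6 months, GRKO libraries 4, 7, 9 and 10 at 3 months, and WT libraries 1, 2 and 6 at 6 months. That of ENSDART00000184180.1 was lost without any one of 9, namely each GRKO library and WT libraries 10, 12 and 13 at 3 months. That of ENSDART00000191756.1 was lost without any one of 6, namely GRKO libraries 4, 7, 9, 10 and 13 and WT library 13 at 3 months. Leaving out each library in turn gave edgeR adjusted p-values of 0.0415 to 0.134 for ENSDART00000111878.4, 0.0216 to 0.0775 for ENSDART00000184180.1 and 0.0189 to 0.0530 for ENSDART00000191756.1, with the same sign throughout.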

How the data were processed

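Estimated counts per transcript, the deposited values, came from 23 ovary libraries of poly(A)-selected RNA, per the labels. The submitters' processing notes name kallisto 0.48.0 and the build GRCz11. The sources used here do not give the annotation release, strandedness or trimming. CPM is a transcript's deposited estimated count divided by the library's total, times 1000000, and counts were rounded for the 0 calls and for tests.

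Members, rule and lists were chosen with earlier results of these data known. Correlations are Pearson's over 23 libraries on log2(CPM + 1). The transcripts described in full were the 10 with the highest mean CPM over their carrying libraries, up to 3 of each shared pattern, complementary pairs and any called by age; others named were chosen after their values were seen, as were the partners and neighbours in the list. Gene families, positions and marker lists were not analysed here, and a planned permutation test of the number carried was not run because the same values chose the members.

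The test was edgeR 4.0.16 (quasi-likelihood, robust, TMM, R 4.3.3) on the 4 group means of all 23 libraries, with edgeR's default filter (minimum count 10, total 15), with Benjamini-Hochberg adjustment over 30849 transcripts. Standard errors were taken as log2 fold change over the square root of F. Bounds use 3 counts over an empty group and cover counting error only. Scripts were tested on simulated data. Alternatives were other thresholds, normalizations and filters, DESeq2 1.42.0, limma 3.58.1, a library-number block, GRKO library 4 left out or counted as WT, and each library left out; leaving out WT libraries 2 and 6 at 3 months, or GRKO libraries 10 and 12 at 6 months, was chosen after seeing the data. Within groups, pairs of libraries had a chi-square of at least 28.3 per degree of freedom (transcripts with at least 20 counts in the pair), far above counting noise, and each library counted once.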

Additional observations from a re-analysis of the deposited data

Results flagged for a closer look

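In 56 checks within a group, each of a described transcript or of the number of transcripts carried, 11 (19.6%) had 1 library set apart above the rest. All 11 were checks of a transcript. The transcripts were chosen for holding both absent and present libraries. A chance rate of about 1 in 20 can therefore not be assumed for these checks. In some groups, such as both groups of 6 months for ENSDART00000115282.4, every library lacked the transcript and none could stand apart. The share of 19.6% is a description and is not set against chance.

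In GRKO at 3 months, library 12 stood above the other 5 for 4 transcripts: ENSDART00000190867.1 at 16.85 CPM (next highest 2.84), ENSDART00000192590.1 at 8.212 CPM (next 1.22), ENSDART00000190930.1 at 8.181 CPM (next 2.46) and ENSDART00000190341.1 at 12.88 CPM (next 0.407). In GRKO at 6 months, library 12 stood apart for ENSDART00000054788.5 at 25.64 CPM (next 3.76) and for ENSDART00000111878.4 at 0.1053 CPM, where the other 5 libraries were at a rounded count of 0.

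In WT at 6 months, 3 different libraries stood apart. Library 9 had 14.45 CPM of ENSDART00000192590.1 (next 2.80), library 1 had 19.81 CPM of ENSDART00000171851.2 (next 6.85) and library 2 had 9.25 CPM of ENSDART00000054788.5, where the other 5 libraries were at 0. In WT at 3 months, library 12 had 397.6 CPM of ENSDART00000190867.1 (next 87.8) and library 2 had 41.99 CPM of ENSDART00000171851.2 (next 9.22).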

How the results depend on the processing

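The number of transcripts that meet the rule, 34, depended on its limits: 306 at 1 CPM, 16 at 10 CPM, 256 with 2 libraries of each genotype, 5 with 4 libraries and 16 with an exact estimate of 0. It was 12 without WT libraries 2 and 6 at 3 months, 22 without GRKO libraries 10 and 12 at 6 months, and 19 to 31 leaving out each library in turn. The 8 transcripts that share a pattern became 3 at 10 CPM and 0 when no differing library was allowed, and 8 to 9 leaving out each library. Complementary pairs stayed at 0 under every alternative run (0 to 0 over single libraries).

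For age, calls among the 34 were 0 in GRKO but 1 with limma and 5 with DESeq2, and 0 in WT but 1 with DESeq2. The interaction gave 0 calls but 3 with DESeq2. Leaving out each library gave 0 for all 3. For GRKO against WT at 3 months the 2 calls became 0 without a filter, with 3.35% of all transcripts called. They became 0 with GRKO library 4 left out (6.2% of all called) and 0 with it counted as WT (1.48%). Without WT libraries 2 and 6 at 3 months 7 were called (27.2%). With limma 1 was called (33.1%), which was neither of the 2 but ENSDART00000066359.7. Leaving out each library gave 0 to 3 calls. At 6 months the 1 call became 0 without a filter, with 2.44% of all transcripts called. It became 0 with GRKO library 4 left out (5.55% of all called) and 0 with it counted as WT (4.24%). Without WT libraries 2 and 6 at 3 months 3 were called (10.6%). Without GRKO libraries 10 and 12 at 6 months 0 were called (1.99%). With limma 0 were called (8.83%) and with DESeq2 3 (9.82%). Leaving out each library gave 0 to 1 calls. No result changed sign, and the cause of these changes was not tested.

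Library numbers did not pair the samples: over 13 same-number pairs the deviations from group means correlated at -0.45 to 0.42 (median -0.01), with 2 over 0.1. With the replicate number as a block, 1 of the 34 was called for GRKO against WT at 3 months and 0 at 6 months. Over all transcripts there were 253 and 17 calls, against 2588 and 1865 without the block. Age and interaction calls stayed at 0 among the 34. Some numbers occur in only 1 library, which its own block then takes out of the comparison. The block also leaves fewer degrees of freedom, so nothing about library number is read from the lower counts.

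Over all transcripts, calls at 3 months were 8937 without WT libraries 2 and 6, 456 with GRKO library 4 as WT, 10197 with limma and 4186 with DESeq2. Depth limits absence: a rounded count of 0 can also come from a transcript at a level too low to give reads in a library.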
